A study of Caenorhabditis elegans with 205 samples.

Results

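The neuropeptide-like protein (nlp) genes encode precursors of short peptides that neurons and some other cells secrete. They were taken as every row of the deposited WS289 count table whose gene identifier carries a symbol made of nlp and a number, which gave 78 of 46927 genes. Of these, 71 carry the symbol in the Ensembl annotation, and 7 (nlp-10, nlp-88, nlp-89, nlp-90, nlp-91, nlp-99 and nlp-119) carry it in the RefSeq annotation at the same start and end. The genes nlp-38, nlp-42 and nlp-44 were not found under those symbols and were not analysed here. The members lie on chromosomes I (7 genes), II (11), III (8), IV (12), V (18) and X (22) of the WBcel235 build.

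The series counted transcripts in bulk RNA from sorted Caenorhabditis elegans neurons, in libraries from 53 neuron classes with 2 to 6 libraries each. Worms were grown on nutrient agar with Escherichia coli NA22, cells of a target class were sorted by fluorescence into Trizol, and sequencing libraries came from the SoLo Ovation kit of Tecan. The labels name the class but no strain, fluorescent reporter, promoter, sex or age, so what limited the sort to a class cannot be stated here. Of the libraries, 180 from 46 classes were labelled untreated and carry a description naming the kit, and the other 25, from the 7 classes CEP, DVB, HSN, PVP, PVQ, RME and SIA, do not, so the form of label and the class cannot be told apart. Libraries are named by class and number, such as PVQr233. Nothing in the labels says whether libraries of a class came from separate cultures, so p-values measure only the spread between these libraries.

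A nlp precursor enters the secretory pathway and is cut by proprotein convertases, of which EGL-3 is the main one in neurons, then trimmed by the carboxypeptidase EGL-21 and often amidated, inside dense-core vesicles. The released peptides act mostly on G-protein-coupled receptors of other cells, and a peptide can act at a distance from the neuron that made it. The family is defined by what it is not, since it holds the precursors outside the FMRFamide-like (flp) and insulin-like families, so its members share no common sequence, and some (nlp-24 to nlp-34) are better known as antimicrobial genes of the skin.

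Total counts per library ran from 798303 to 24647021, with a median of 4692492. The upper limit for a gene with 0 counts, which is 3 counts, had a median over libraries of 0.643 CPM (counts relative to the library total, scaled by the trimmed mean of M values, TMM) and was at most 6.39 CPM, and this covers counting error only. Of 34 marker and class pairs used to check the labels, 24 had their highest class mean in the labelled class and 30 were among the first 3 classes. In 7 libraries the class marker was under 20% of the class median (AWAr20, AWBr51, DAr89, IL2r94, NSMr68, PVQr234 and PVQr236). In 6 others a marker of a different class reached at least 25% of that class's own mean, under a rule that also asked for a 4-fold difference between classes. Markers outside that rule did not set libraries apart in this way. For example, lin-11, used for VC, was at 496 CPM in ADL, against 97.2 CPM in VC. RIAr71 and RIAr73 held the ASER receptor gene gcy-5 at 40.7 and 25.3 CPM, against 56.0 CPM in ASER and a RIA median of 1.34 CPM. AIMr192 held the AIY gene ttx-3 at 1803 CPM, against an AIM median of 350.05 CPM. AIYr67, ASGr13 and IL2r96 held flp-1, daf-7 and flp-11 at 34.1% or more of the level in AVK, ASI and RIS, but the medians of their own classes were also high. For flp-1 AIYr67 was at 10344 CPM and the AIY median was 4246 CPM, for daf-7 ASGr13 was at 3782 against 2047 CPM in ASG, and for flp-11 IL2r96 was at 4061 against 2505 CPM in IL2. The main values below that rest on these 13 libraries are also given without them.

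Nearly the whole family was detected, and most members were unevenly spread over the classes. Of 78 members, 74 reached a class mean of 10 CPM (TMM-scaled), 59 reached 100 CPM, 38 reached 1000 CPM and 6 reached 10000 CPM (nlp-6, nlp-80, nlp-49, nlp-99, nlp-17 and nlp-43). The members that stayed under 10 CPM in every class were nlp-4, nlp-32, nlp-39 and nlp-90. Among 20427 genes that passed the filter on low counts, 13507 (66.1%) reached 10 CPM in a class. The filter kept 77 members and left out nlp-39, and since it keeps a gene through the classes where it is high, the counts below are over the members that passed. All 77 differed among the 53 classes (edgeR quasi-likelihood test, Benjamini-Hochberg adjusted p from 0.000865 for nlp-90 downward), where 95.4% of all tested genes did, so this count is close to that of any gene here.

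A member at 10 CPM or more was at that level in a median of 27 classes, against 42 for the 30 such flp genes and 20 for all such genes. The tissue specificity index tau, computed on log2(CPM + 1) of the class means and running from 0 for even expression to 1 for a single class, had a median of 0.596 for nlp genes, 0.583 for flp genes and 0.400 for all genes. In 21 of 74 members (28.4%) the highest class did not overlap with any other library, where 12.2% of all genes at 10 CPM or more did. For flp genes the count was 12 of 30. The ratio between the highest and the next class mean had a median of 1.78 for nlp genes, 2.67 for flp genes and 1.34 for all genes.

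**Figure D1:**
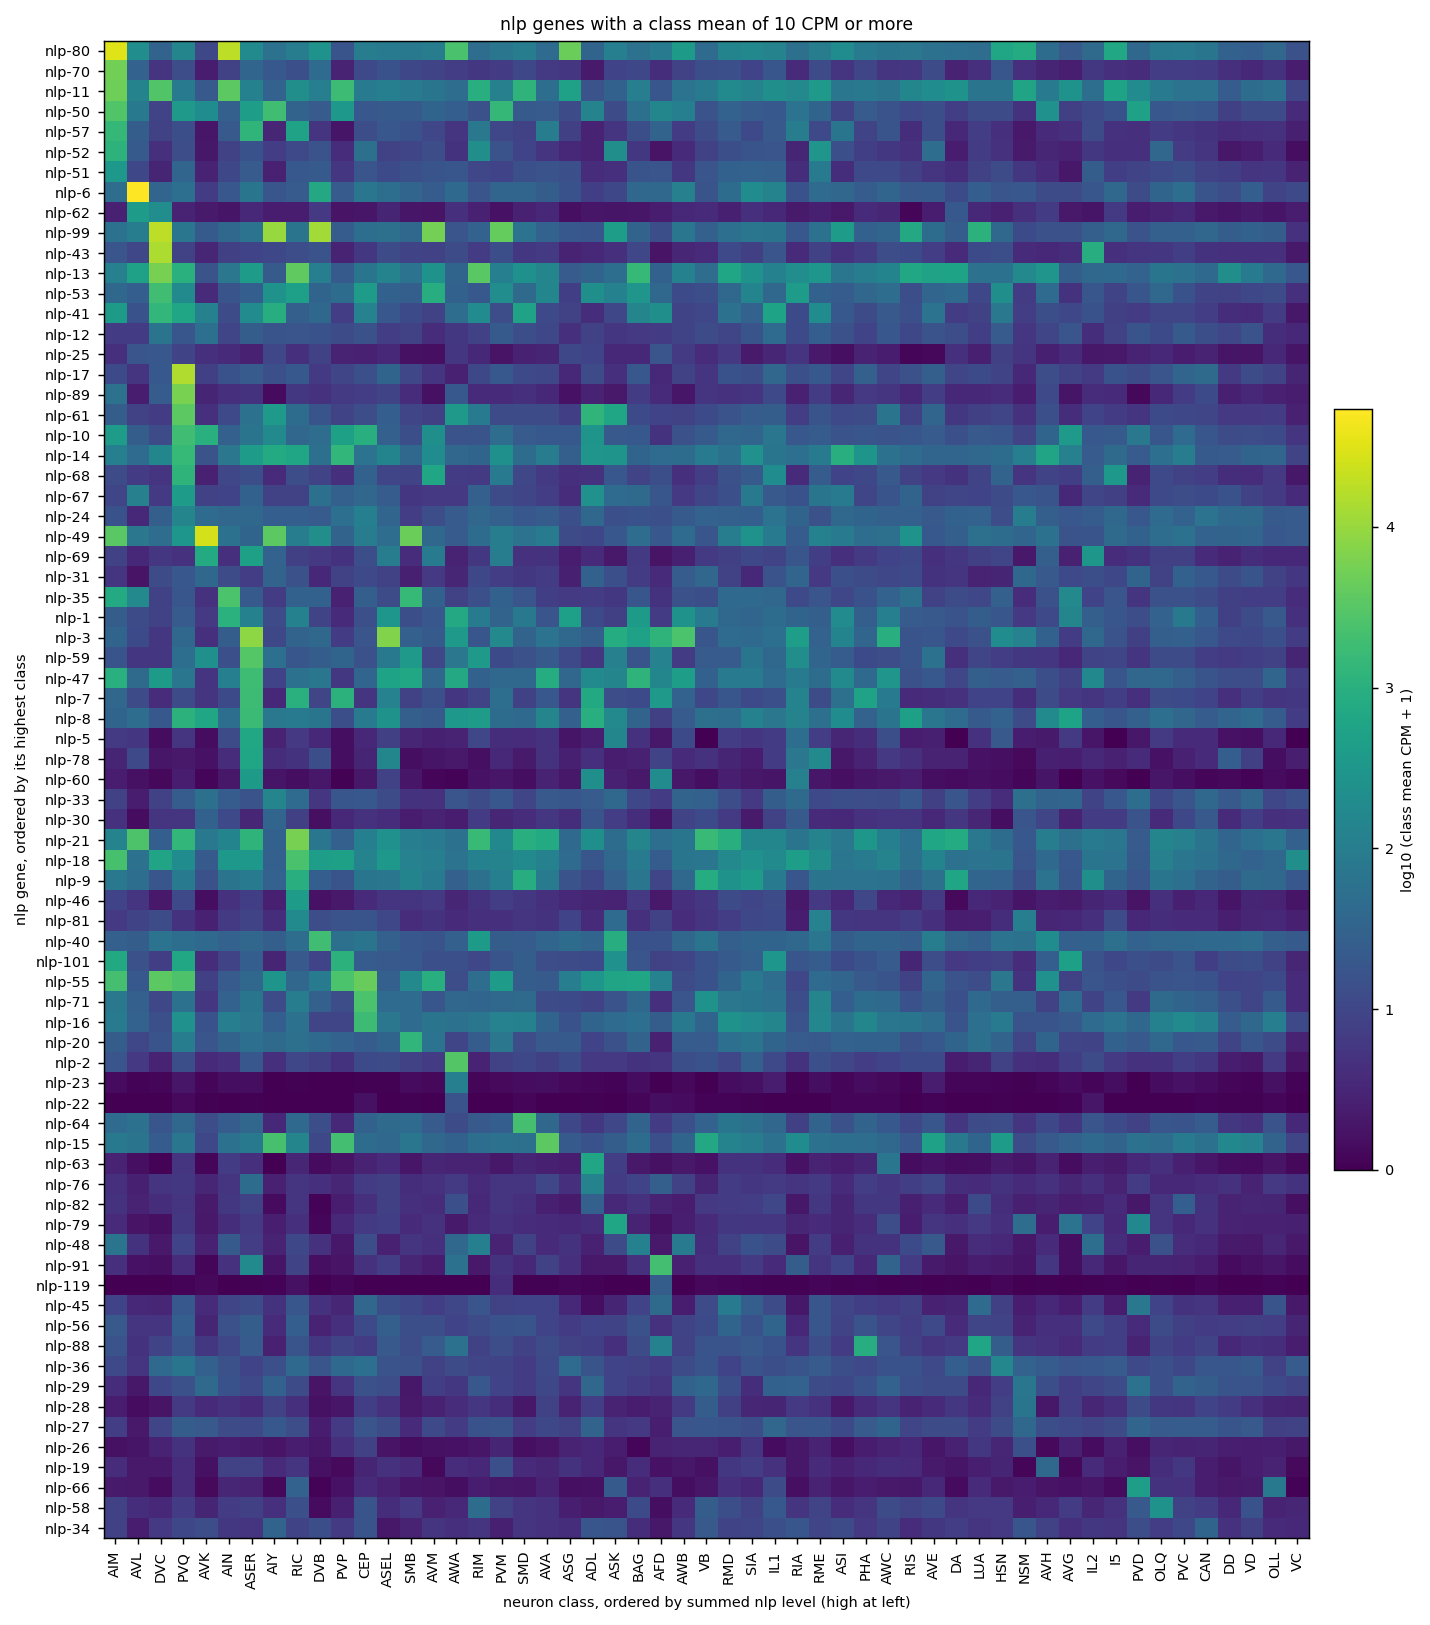
Class mean level of the 74 nlp genes that reached 10 CPM, as log10(CPM + 1), with classes ordered from the highest to the lowest summed nlp level and genes ordered by their highest class. Bright cells off the diagonal are genes shared by several classes, such as nlp-80 in AIM and AIN, and the dark columns at the right are classes such as VC, OLL, VD and DD.

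The 53 classes differed widely in how much nlp transcript they held. The summed level over all 78 members was 59684 ± 74923 CPM (SD, n = 4) in AIM, 59153 ± 20003 (n = 3) in AVL, 49604 ± 41025 (n = 4) in DVC, 39636 ± 39488 (n = 4) in PVQ and 29965 ± 17908 (n = 4) in AVK. At the other end it was 577 ± 120.6 CPM (n = 6) in VC, 1006 ± 540 (n = 2) in OLL, 1071 ± 125 (n = 4) in VD and 1077 ± 325 (n = 4) in DD. The libraries of AIM spread from 17146 to 171933 CPM, and those of AVL, DVC, PVQ and AVK also overlapped with AIM and with each other, so the order of these 5 classes is within their spread. Without the 13 libraries the sum was 73821 ± 1261 CPM (n = 2) in PVQ and 22268 ± 4498 (n = 3) in AIM. No library of VC, OLL, VD or DD reached the lowest library of AVL, AIM, AVK or PVQ. Because the RNA is from bulk sorted cells, fewer cells of the target class and less of a transcript per cell cannot be told apart.

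**Figure D2:**
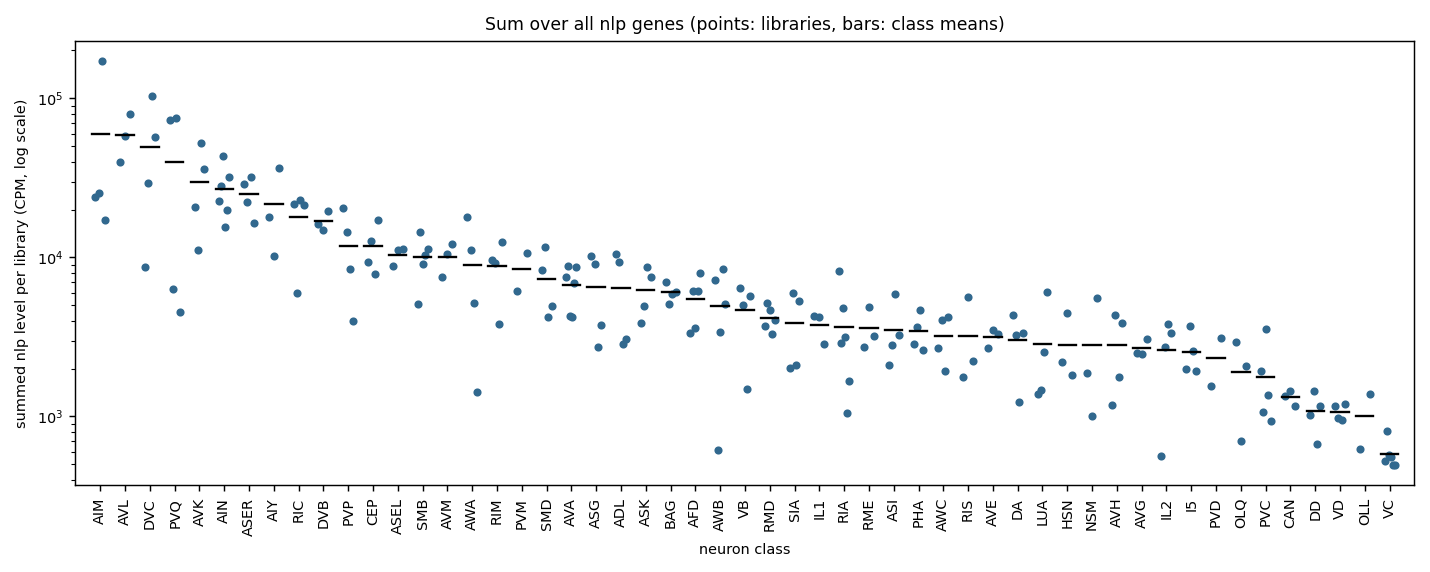
Summed level of all 78 nlp genes per library in CPM on a log scale, with 1 point per library and a bar at the class mean, classes ordered by that mean. AIM and AVL have the highest means, the libraries of PVQ run from 4549 to 74713 CPM, and the 6 libraries of VC lie between 495 and 814 CPM.

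In some classes a single gene made up most of the sum. The gene nlp-6 was 91.3% of the summed level in AVL and nlp-49 was 87.7% in AVK. The gene nlp-80 was 72.5% in ASG (65.6% without ASGr13) and 67.4% in AIN, while nlp-99 was 71.2% in DVB and nlp-3 was 64.6% in ASEL. In others the sum was shared: PVQ and ASER each had 20 members at 100 CPM or more, AIM had 18 (15 without AIMr192, with PVQ at 20 without its low pair), and RIC and ASK had 15 each, but in ASK no member reached 1000 CPM. CAN, OLL, VC and VD had 1 member each at 100 CPM.

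Of 15 listed genes for peptide processing and release, 7 had their highest class mean in AVL. The processing list held convertases (egl-3, kpc-1, bli-4, aex-5), carboxypeptidases (egl-21, cpd-1), the convertase chaperone sbt-1, amidating enzymes (pgal-1, pghm-1, pamn-1) and dense-core vesicle genes (ida-1, unc-31, unc-108, rund-1, hid-1). All 15 differed among classes by the edgeR test (background 95.4%), and the 7 highest in AVL were egl-3, egl-21, sbt-1, pgal-1, pamn-1, ida-1 and hid-1. The other 8 were highest in PVD (kpc-1), SMB (bli-4), BAG (aex-5), PVC (cpd-1), ASG (pghm-1), AFD (unc-31), DVC (unc-108) and AIY (rund-1). The convertase gene egl-3 was at 20156 ± 6991 CPM (SD, n = 3) in AVL, at 9383 ± 942 (n = 3) in DVB and at 2102 in the median class, and it reached 100 CPM in all 53 classes. The AVL libraries of egl-3 and pgal-1 all lay above every other library. Those of egl-21, sbt-1, pamn-1, ida-1 and hid-1 did not. For sbt-1, pamn-1, ida-1 and hid-1 the AVL libraries overlapped with the next class, so the first place of AVL is within the spread. In DVCr167 ida-1 was at 5283 CPM, against at most 4934 CPM in AVL. The share of all genes highest in AVL is not given here, so the count of 7 cannot be set against a background. Across the 53 class means the log2 sums of the processing list and of the nlp genes correlated with Pearson's r = 0.856, and those of the nlp and flp genes with r = 0.714. These are descriptions over classes that share the normalization and the sorting procedure, and the part of sort purity in both sums was not tested.

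The highest class mean of the family was that of nlp-6 in AVL, an enteric motor neuron that with DVB drives defecation. It was at 35327, 52733 and 73931 CPM in the 3 AVL libraries, and at 1308, 510 and 379 CPM in the next class, DVB. All AVL libraries lay far above every other library. The log2 fold change of AVL over the unweighted mean of the other 52 classes was 10.98 ± 0.24 (SE; edgeR adjusted p = 4.87e-89). The class was picked as the one with the highest mean, so for each member this test carries that choice. In the same test across all genes and classes, 11.4% of the gene and class pairs were called higher.

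Several genes were highest in PVQ, a pair of interneurons of the tail. The gene nlp-17 was at 24205, 280, 34230 and 1410 CPM in PVQr233 to PVQr236, against 41.8 ± 11.6 CPM (SD, n = 3) in CAN, the next class, a ratio of 360 between means. PVQr233 and PVQr235 stood far above PVQr234 and PVQr236, yet even the lowest of the 4 lay above the highest library of any other class (88.8 CPM in PVCr216). PVQr234 and PVQr236 are also those low in the PVQ receptor gene sra-6, and without them the mean was 29217 ± 7088 CPM (n = 2).
The gene nlp-89 was at 12755, 77.98, 11042 and 439 CPM in the same 4 PVQ libraries, and at 56.1 ± 61.3 CPM (SD, n = 4) in AIM, the next class. PVQr233 and PVQr235 were high and the other pair low, and PVQr234 lay under AIMr192, at 138.6 CPM, so the classes overlapped by that library. Without the 13 libraries the PVQ mean was 11898 ± 1211 CPM (n = 2) and the AIM mean 28.7 CPM. PVQ was higher than the other classes by 10.56 ± 0.26 on the log2 scale for nlp-17 (edgeR adjusted p = 3.07e-82) and by 10.90 ± 0.23 for nlp-89 (edgeR adjusted p = 1.33e-93). These SE are pooled over all classes, and the 4 PVQ libraries were much further apart than they show. With limma-voom the log2 fold changes were 8.46 and 8.47 with all libraries, and 11.83 and 12.12 without the 13. The gene nlp-61 was shared, with 7556, 85.7, 5766 and 251 CPM in PVQ, 2296, 1926, 372 and 475 CPM in ADL, a nociceptive sensory neuron, and 598 ± 256 (n = 4) in ASK, and the ADL libraries lay within the range of PVQ. Without PVQr234 and PVQr236 the PVQ mean of nlp-61 was 6661 ± 1266 CPM (n = 2), against 1267 CPM in ADL.

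The exons of nlp-17, on chromosome IV from 13505270 to 13505762 on the minus strand, share 30 of 434 bases with seld-1 on the opposite strand. The gene seld-1 was itself highest in PVQ, at 1381 ± 1501 CPM (n = 4) and at 2676 ± 218.9 CPM (n = 2) without PVQr234 and PVQr236, and correlated with nlp-17 over the 53 class means at r = 0.720. Whether the counting used strand is not given in the sources used here, so the share of reads that belongs to either gene cannot be stated. Of the 78 members, 16 share exon bases with another gene, 4 of them on the same strand. The largest overlap was that of nlp-99 with nep-2, and nep-2 was at 56.2 CPM in DVC, where nlp-99 was at 18179 CPM. For nlp-76, which shares 67 bases with the nuclear receptor gene nhr-17 on the same strand, nhr-17 was the higher gene in ADL, at 1561 against 130.6 CPM, and the class means correlated with r = 0.835, so the nlp-76 values are uncertain.

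DVC, a single tail interneuron that senses body stretch, had the highest mean for 7 members, among them nlp-99 and nlp-43. The gene nlp-43 was at 2346, 8998, 28224 and 16573 CPM in DVC and at 59.1, 880, 1638 and 949 CPM in IL2, a class of ciliated head neurons. Every DVC library lay above every other library, and after IL2 the next class, AIM, was at 16.7 CPM. DVC was higher by 11.23 ± 0.22 on the log2 scale (edgeR adjusted p = 1.87e-97). The lowest IL2 library, IL2r94, is one of the 13, with the IL2 gene klp-6 at 23.5 CPM against a class median of 492. The gene nlp-99 was at 2767, 9594, 40594 and 19760 CPM in DVC, at 10240, 10730 and 15111 CPM in DVB and at 8005, 5910 and 16722 CPM in AIY, and these 3 classes overlapped. The highest AIY value is that of AIYr67, 1 of the 13, and without it the AIY libraries lay under every DVB library.

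AIM, an interneuron pair of the head, also had the highest mean for 7 members, and 1 library carried much of that. The gene nlp-70 was at 1706, 2077, 16211 and 1651 CPM in AIMr190 to AIMr193 and at 43.8 ± 35.8 CPM (SD, n = 3) in DVB, the next class. Each AIM library lay above every other library, and without AIMr192 the mean was 1811 ± 231.8 CPM (n = 3) in place of 5411. AIMr192 also held egl-3 and sbt-1 at a sum of 25113 CPM, against 3851 to 5770 CPM in the other AIM libraries. Its flp sum was 58312 CPM, against 4279 to 6114 CPM. Whether AIMr192 held more AIM RNA, RNA of another class or both was not tested. AIM was higher by 9.81 ± 0.24 on the log2 scale (edgeR adjusted p = 3.57e-83). For nlp-80 AIM held 12208, 13220, 90789 and 8464 CPM, and the 6 AIN libraries ran from 11339 to 29840 CPM with a median of 16682. The classes overlapped, and without AIMr192 the order turned, to 18153 ± 6662 CPM (n = 6) in AIN and 11297 ± 2505 (n = 3) in AIM. Leaving out the 13 libraries also moved the highest mean from AIM to another class for nlp-11 (AIN), nlp-50 (AIY) and nlp-57 (ASER), while 64 of the 74 members at 10 CPM or more kept their highest class.

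ASER, the right-hand salt-sensing neuron, had the highest mean for 8 members, as did PVQ. The gene nlp-59 was at 3392, 2789, 3956 and 2167 CPM in ASER and at 370 ± 133 CPM (SD, n = 5) in SMB. All ASER libraries lay above every other library, of which the highest was RIAr71 at 677 CPM. RIAr71 and RIAr73, the libraries with the ASER gene gcy-5, also held nlp-3 at 1586 and 945 CPM and nlp-60 at 618 and 52.04 CPM, against 3.85 to 33.8 CPM and 0 to 0.982 CPM in the other 4 RIA libraries. The part of ASER RNA in these 2 libraries was not tested.

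A group of genes was strong in 1 class and low elsewhere. The gene nlp-64 was at 2628, 4071, 1077 and 734 CPM in SMD, a class of head motor neurons, against 66.98 ± 19.1 (SD, n = 5) in RMD, the next class. The gene nlp-20 was at 812 to 1694 CPM (median 1412, n = 5) in SMB, another class of head motor neurons, against 94.4 ± 67.9 (n = 4) in PVQ. The gene nlp-46 was at 431, 136.7, 563 and 519 CPM in RIC, the octopamine-making interneuron, against 11.5 ± 4.28 (n = 5) in RMD. For none of the 3 did a library of another class reach the lowest library of the highest class. The log2 fold changes were 7.16 ± 0.24 for nlp-64 (edgeR adjusted p = 7.41e-64), 5.93 ± 0.22 for nlp-20 (5.69e-58) and 7.33 ± 0.26 for nlp-46 (2.83e-62). In CEP, the dopaminergic mechanosensors of the head, nlp-71 was at 1376, 2010, 1415 and 5244 CPM, above every other library, with VB next at 273 ± 118.8 CPM (n = 4).

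**Figure D3:**
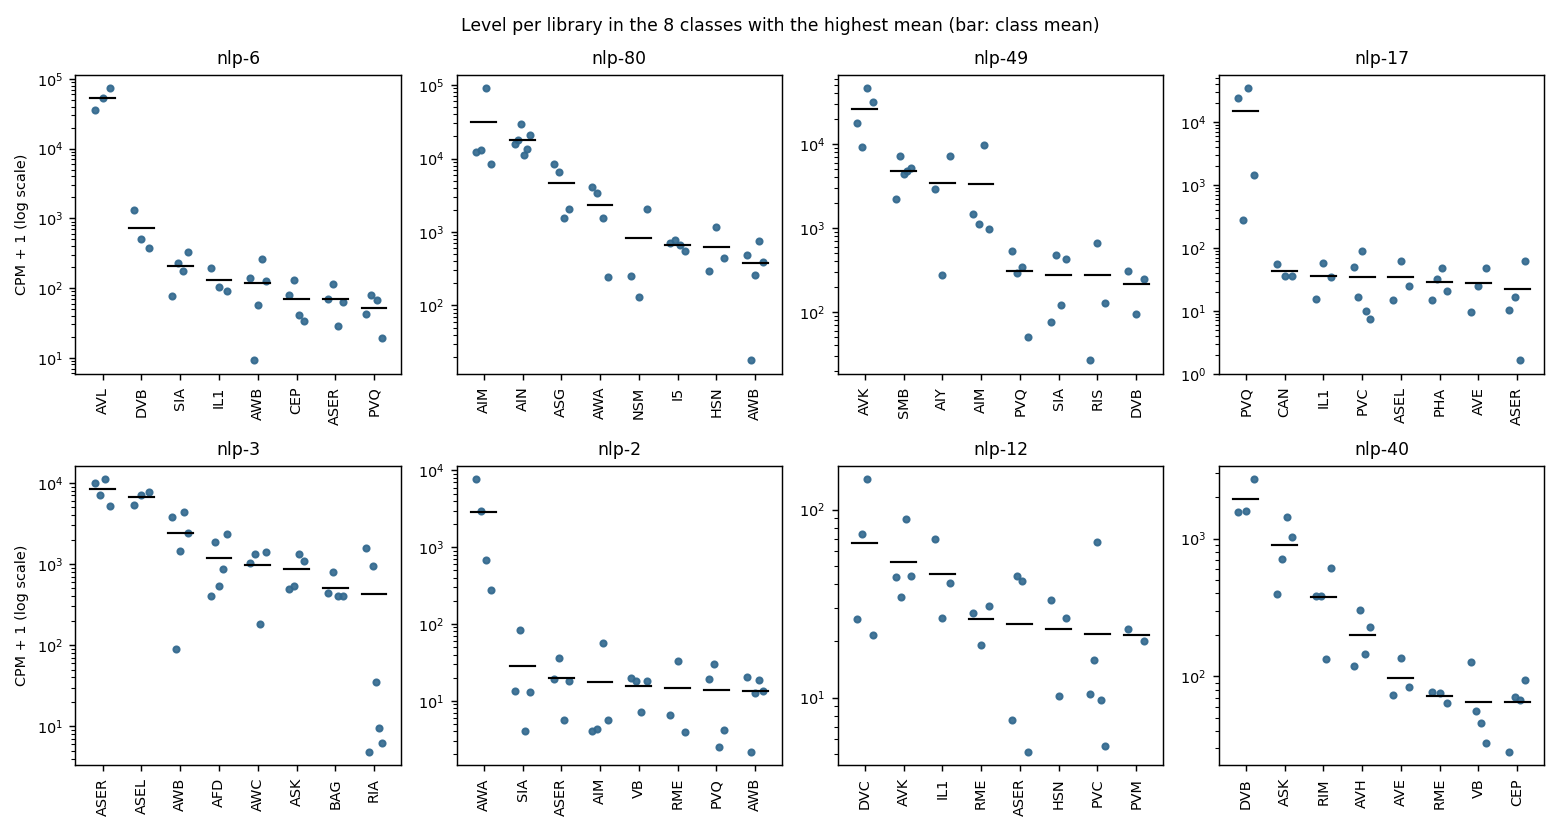
Level of 8 nlp genes in each library (points) of the 8 classes with the highest means, as CPM + 1 on a log scale, with bars at class means. For nlp-6 the AVL libraries stand alone at 35327 to 73931 CPM, for nlp-17 the PVQ libraries split into a high and a low pair, and for nlp-12 the libraries of DVC, AVK and IL1 overlap.

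Other strong members were shared by a few classes. The gene nlp-49, whose peptide acts on the receptor SEB-3 in arousal and locomotion, was at 17858, 9248, 46110 and 31911 CPM in AVK, at 2239 to 7128 CPM (median 4737, n = 5) in SMB and at 2937, 272 and 7215 CPM in AIY. The AVK libraries lay above those of both other classes, but AIMr192, at 9641 CPM, passed the lowest of them. AIMr192 is 1 of the 13, as is AIYr67, which held the 7215 CPM in AIY. AVK was higher by 8.80 ± 0.23 on the log2 scale (edgeR adjusted p = 8.27e-79). The gene nlp-35 was at 1249 to 4064 CPM (median 2329, n = 6) in AIN and at 422 to 2513 CPM (median 1794, n = 5) in SMB, which overlapped. The gene nlp-55 was at 3214, 5065, 2243 and 6308 CPM in CEP and at 592, 2440, 6903 and 4015 CPM in DVC, which overlapped, and without the 13 libraries PVQ was highest, at 4970 CPM. The orcokinin genes nlp-14 and nlp-15, which code for relatives of a crustacean peptide family, had their highest means in PVQ and AVA in turn, each overlapping with the next class. The gene nlp-15 was at 1900 to 4602 CPM (median 3709, n = 6) in AVA, a command interneuron for backward movement, at 2300 ± 1352 CPM (n = 3) in AIY and at 2085 ± 1162 CPM (n = 4) in PVP. AIYr67, 1 of the 13, held 3803 CPM, and without the 13 libraries PVP was the next class. The gene nlp-14 was at 2993, 211.7, 2657 and 118.01 CPM in PVQ and at 1344 ± 772 CPM (n = 4) in PVP, and without PVQr234 and PVQr236 the PVQ mean was 2825 ± 237.9 CPM (n = 2).

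Members with middling levels were in some cases just as separate. The gene nlp-16 was at 1802, 1535, 1677 and 1974 CPM in CEP, with little spread, against 273 ± 125 CPM (SD, n = 5) in RMD. The gene nlp-78 was at 842, 369, 688 and 508 CPM in ASER against 176.1 ± 42.998 (n = 3) in RME. The gene nlp-79 was at 430, 589, 767 and 772 CPM in ASK, a pheromone-sensing neuron, against 157.6 ± 81.4 (n = 2) in PVD, and nlp-66 was at 128.7 and 757 CPM in PVD, a harsh-touch neuron, against 82.0 ± 18.7 (n = 2) in OLL. For these 4 genes every library of the highest class lay above every other library, though for nlp-66 the class has only 2 libraries. The gene nlp-62 was largely limited to AVL, at 432, 446 and 343 CPM, and DVC, at 40.6, 134.96, 350 and 323 CPM, and reached 10 CPM in 3 classes in all.

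The genes nlp-7, nlp-8, nlp-9 and nlp-10 were strong in several classes whose libraries overlapped. The gene nlp-7 was at 1967, 1534, 2736 and 885 CPM in ASER and 1093 ± 738 CPM (SD, n = 4) in PVP, and nlp-8 was at 2345, 1452, 2350 and 589 CPM in ASER and 2343, 157.8, 1858 and 83.6 CPM in PVQ. Without the 13 libraries PVQ, at 2100 CPM, passed ASER for nlp-8. The gene nlp-9 was at 1058, 250.3, 1169 and 1164 CPM in RIC, 901 ± 511 (n = 4) in SMD and 850 ± 490 in VB, which could not be ordered within their spread. The gene nlp-10 was at 4317, 86.01, 3026 and 133 CPM in PVQ and 810, 439, 1732 and 1135 CPM in AVK, and without PVQr234 and PVQr236 the PVQ mean was 3672 ± 913 CPM (n = 2).

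The broadest members were nlp-13, nlp-18, nlp-21 and nlp-40, at 10 CPM or more in all 53 classes, followed by nlp-11, nlp-14, nlp-49, nlp-80 and nlp-99 with 52 each. The gene nlp-13 reached 100 CPM in 28 classes, nlp-11 and nlp-21 in 26 each, nlp-18 in 25 and nlp-40 in 4. For nlp-80 the count was 20, for nlp-14 it was 18, and for nlp-49 and nlp-99 it was 9 each. The part of RNA from other cells in levels near 10 CPM was not tested. The highest class means were 5901 ± 4898 CPM (SD, n = 4) for nlp-13 in DVC and 5812 ± 3036 (n = 4) for nlp-21 in RIC. For nlp-18, which codes for ligands of the cholecystokinin-like receptor CKR-1, RIC at 2316 ± 1124 (n = 4) and AIM at 2252 ± 2995 (n = 4) overlapped, and the AIM mean was 759 CPM without AIMr192. These levels are per gene. Divided by exon length, the highest class means were 58481 CPM per kb for nlp-80, 43803 for nlp-49, 34634 for nlp-17 and 31176 for nlp-6, which has the longest exons of the family (1732 bases).

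For several members the receptor or the source cell is known from earlier work, and both sides could be read here. The gene nlp-40 codes for a peptide that the intestine secretes to trigger expulsion in defecation, through the receptor AEX-2 on DVB and AVL. Its transcript was at 1548, 1577 and 2690 CPM in DVB itself and at 392, 705, 1443 and 1024 CPM in ASK. No library of another class reached the lowest DVB library, and in AVL it was at 27.2, 35.7 and 10.1 CPM. DVB was higher by 5.61 ± 0.20 on the log2 scale (edgeR adjusted p = 6.32e-60). The summed level of 6 intestinal genes (vit-2, vit-6, ges-1, elt-2, asp-1 and cpr-1) was 552 to 902 CPM in the DVB libraries, against a median of 661 over all libraries and a highest value of 31096. The part of intestinal RNA in the DVB level was not tested. The receptor gene aex-2 was highest in AVL, at 1030 ± 114 CPM (SD, n = 3), with DVB next at 109.4 ± 72.9 (n = 3).

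The gene nlp-12 codes for cholecystokinin-like peptides that DVC releases onto motor neurons when the body bends, acting through CKR-1 and CKR-2. It was at 25.2, 73.6, 143.6 and 20.4 CPM in DVC, at 42.8, 33.3, 88.03 and 43.3 CPM in AVK and at 44.6 ± 22.1 CPM (SD, n = 3) in IL1. The libraries of these classes overlapped, so the first place of DVC is within the spread. DVC was higher than the mean of the other classes by 2.705 ± 0.33 on the log2 scale (edgeR adjusted p = 6.98e-12). The receptor gene ckr-2 was highest in DVC too, at 324 ± 205.1 CPM (n = 4), while ckr-1 was highest in AWB, at 395 ± 322 (n = 5), or 490.2 ± 279.6 (n = 4) without AWBr51.

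The gene nlp-1, whose peptide from the olfactory neuron AWC acts through NPR-11 in odour adaptation, was highest in AIN at 593 to 1458 CPM (median 1083, n = 6). It was at 1498, 984, 311 and 65.7 CPM in AWA, which overlapped with AIN, and at 134.9, 131.1, 53.6 and 120.9 CPM in AWC, below every AIN library. AIN was higher by 5.20 ± 0.20 on the log2 scale (edgeR adjusted p = 1.52e-57). Its receptor gene npr-11 was highest in ASER, at 291 ± 104.7 CPM (SD, n = 4). The gene nlp-3, which stimulates egg laying when released from HSN, was at 9972, 7037, 11020 and 5241 CPM in ASER and 5267, 7093 and 7804 CPM in ASEL, which overlapped, and at 71.2, 429.5 and 102 CPM in HSN. HSNr237 to HSNr239 held the 6 intestinal genes at 31096, 1070 and 23346 CPM, against a median of 661 over all libraries. Their summed egl-3 and sbt-1 levels were 1563, 4986 and 1678 CPM. The part of intestinal RNA in the HSN levels of nlp-3 was not tested.

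The gene nlp-47, a relative of gonadotropin-releasing and adipokinetic hormones, was at 1827 ± 689 CPM (SD, n = 4) in ASER and 1188 ± 329 (n = 4) in BAG, which overlapped. The receptor gene gnrr-1 was at most at 50.02 ± 38.7 CPM (n = 4), in DA, or 64.9 ± 30.4 CPM (n = 3) without DAr89. The gene nlp-24, whose opioid-like peptide acts from ASI through NPR-17 in feeding, was at 52.9, 13.9, 66.4 and 16.3 CPM in ASI, and npr-17 was highest in PVP at 372 ± 174.3 CPM (n = 4). The receptor gene seb-3 was highest in AIN, at 373 ± 118.9 CPM (n = 6). All 9 receptor genes listed, the neuromedin-U-like receptor genes nmur-1 and nmur-2 among them, differed among the classes (edgeR, background 95.4%).

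The 3 RPamide genes nlp-22, nlp-23 and nlp-2 lie next to each other on chromosome X between 2341359 and 2344766, on the minus strand with 301 and 987 bases between them. All 3 were highest in AWA, an olfactory neuron that detects diacetyl. In AWAr17 to AWAr20, nlp-2 was at 7640, 2973, 673 and 280 CPM. The gene nlp-23 was at 272, 74.2, 65.2 and 23.8 CPM and nlp-22 at 30.1, 12.6, 12.6 and 4.46 CPM. All 3 were highest in AWAr17 and lowest in AWAr20, which is low in the AWA receptor gene odr-10. Each AWA library lay above every other library for each gene, for nlp-22 by a small margin, since AFDr39 held 2.64 CPM. The log2 fold changes were 8.98 ± 0.25 for nlp-2 (edgeR adjusted p = 1.04e-74) and 8.87 ± 0.31 for nlp-23 (8.45e-59). The value for nlp-22, 7.88 ± 0.40, is against 22 classes with no count and depends on how the fit treats them. In RIA, from which NLP-22 is known to act in larval sleep, nlp-22 had 0 counts in 5 of 6 libraries and 0.0589 CPM in RIAr76, and the age of the worms is not given in the labels.

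The 5 pairs of members with the most similar patterns were neighbours on a chromosome, as were 12 of the 30 most similar pairs (within 20000 bases). The share of all pairs within that distance is not given here. Over 2701 pairs of 74 members the median correlation of log2(CPM + 1) across the 53 class means was 0.0954. The 5 highest pairs were nlp-22 with nlp-23 (r = 0.899), nlp-29 with nlp-31 (r = 0.883), nlp-27 with nlp-29 (r = 0.869), nlp-30 with nlp-31 (r = 0.868) and nlp-2 with nlp-23 (r = 0.835), each within 4531 bases. Of pairs on different parts of a chromosome, nlp-30 and nlp-33 had r = 0.822 although 7164605 bases apart on chromosome V, and nlp-17 and nlp-89 had r = 0.804 although 9394799 bases apart on chromosome IV. Neighbours were not always alike, since nlp-45, which lies 3048 bases from nlp-22, had r = 0.118 with it, and nlp-25 and nlp-26, 5041 bases apart, had r = 0.111. All points share the same libraries, and these correlations are descriptions. In 44 of the 53 classes no library had more than 3 counts of nlp-22, and for nlp-23 this held in 28. A single class, AWA, therefore weighs heavily in the r of nlp-22, nlp-23 and nlp-2, as PVQ does for nlp-17 with nlp-89. The genes nlp-27, nlp-29, nlp-30, nlp-31 and nlp-33 belong to the skin genes nlp-24 to nlp-34. The sum of these skin genes rose with body muscle and hypodermis markers over the libraries (r = 0.627 and 0.547). The part of other tissues in the likeness of these pairs was not tested. On chromosome X the adjacent genes nlp-119, nlp-90 and nlp-91 were each highest in AFD, a thermosensory neuron, at unlike levels of 23.8 ± 20.9, 1.60 ± 2.20 and 2050 ± 785 CPM (SD, n = 5). Over all libraries nlp-90 had only 31 counts, and its median in AFD was 0 CPM, so its highest class is uncertain.

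The 11 genes nlp-24 to nlp-34 are known mainly as antimicrobial genes of the epidermis, and nlp-29 is a widely used reporter of fungal infection and wounding. Of these, nlp-34, nlp-31, nlp-30, nlp-29, nlp-28 and nlp-27 lie side by side on chromosome V between 3978825 and 3989770. All 11 were low in the neuron libraries. The highest class means were 140 ± 101 CPM (SD, n = 3) for nlp-33 in AIY and 138.97 ± 251 (n = 4) for nlp-24 in PVQ, and the other 9 stayed at 70.3 CPM or less. The serotonergic neuron NSM was the highest class for 4 of them (nlp-26, nlp-27, nlp-28 and nlp-29). Without the 13 libraries, NSMr68 among them, nlp-29 was highest in PVD at 58.4 CPM, and nlp-27 was at 37.1 CPM in NSM and 35.8 CPM in IL1. The level of nlp-24 in PVQ came from 1 library, with 1.12, 30.6, 9.02 and 515 CPM in PVQr233 to PVQr236, and without the 13 libraries NSM was highest at 140 CPM. The level of nlp-34 in CAN came from 1 library too, with 89.6 CPM in CANr91 and 2.85 and 4.20 CPM in CANr93 and CANr104. CANr91 also held the highest summed level of 6 hypodermis genes of any library, 7475 CPM, against 1118 and 561.6 CPM in the other CAN libraries, and its part in the nlp-34 level was not tested. In edgeR's test each of the 11 was called higher in its highest class, but nlp-24 and nlp-34 were not called by limma-voom (adjusted p = 0.441 and 0.410). Their limma-voom log2 fold changes turned negative when 1 library of every class was left out, -0.78 for nlp-24 in the round without PVQr236 and -0.17 for nlp-34 in the round without CANr91. With all other libraries as 1 group, nlp-27, nlp-29, nlp-30, nlp-31 and nlp-34 were not called by edgeR (adjusted p from 0.0575 to 0.269).

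Markers of other tissues moved with these genes. The summed level of the 11 ran from 13.1 CPM in SMBr198 to 836 CPM in PVQr236, with a median of 80.5. Over all libraries its log2 value correlated with those of 5 body muscle genes (r = 0.627), 6 hypodermis genes (r = 0.547) and 6 intestine genes (r = 0.451), and less with pharynx (r = 0.288), glia (r = 0.217), germline (r = 0.146) and coelomocyte genes (r = -0.0641). The points share a library's depth and scaling. The hypodermis sum (dpy-7, dpy-4, dpy-13, bli-1, col-19 and sqt-3) was above 0 in every library and ran from 63.4 to 7475 CPM. PVQr236 held 5089 CPM of the muscle list and 3195 CPM of the intestine list, against 542 to 1627 and 290 to 448 CPM in the other 3 PVQ libraries, and 847 CPM of the hypodermis list against 249 to 701 CPM. The part of other tissues in the level of these 11 genes was not tested.

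**Figure D4:**
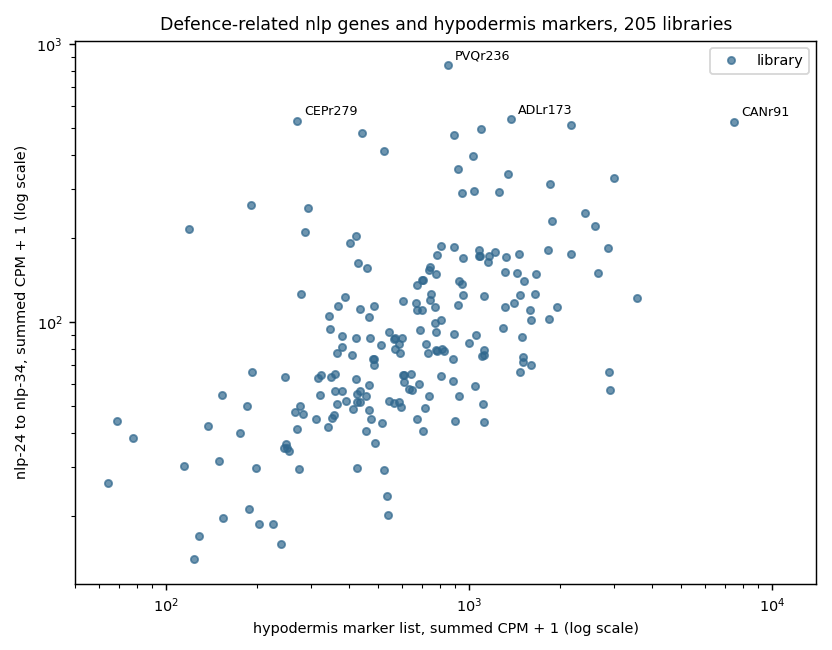
Summed level of nlp-24 to nlp-34 against the summed level of 6 hypodermis marker genes in each library (points), both as CPM + 1 on log scales, with the 4 highest libraries named. The sums rise together (r = 0.547) with wide scatter, and the highest library, PVQr236, is at 836 CPM for the 11 genes.

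When each class was compared with the unweighted mean of the other 52, some classes stood out by the number of members called. In VC, motor neurons of the egg-laying circuit, 52 of 77 members were lower and 2 were higher, against 9.93% and 20.3% of all genes (edgeR, adjusted p under 0.05). With limma-voom 58 were lower and 1 higher, against 23.6% and 19.3%. The 2 called higher by edgeR were nlp-18, at 166.2 to 288.6 CPM (median 224.04, n = 6), and nlp-90, whose VC mean was 0.0385 CPM. Since nlp-90 had no count in 41 classes, its call depends on how the fit treats them. The flp genes went the same way in VC, with 25 of 30 lower and 1 higher.

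PVQ had 33 members higher and 0 lower, against 17.3% and 1.23% of all genes, and with limma-voom 19 and 0, against 4.49% and 1.55%. Without the 13 libraries limma-voom called 21 members higher and 5 lower in PVQ, against 8.81% and 13.1% of all genes. ASER had 30 higher and 0 lower (14.5% and 3.89%), and with limma-voom 27 and 1, against 10.9% and 3.79%. AVK, whose sum is mostly nlp-49, had 15 higher and 32 lower (10.9% and 4.05%). ASK and RIC had 24 each (18.9% and 9.68%) and AIM 21 (6.11%), whereas DD, OLL and VD had 2 each (4.23%, 15.8% and 7.58%). For AIM limma-voom called 17 members higher with all libraries, against 2.43% of all genes, and 15 without AIMr192 and the rest of the 13, against 1.88%.

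Of 4081 member and class pairs, 636 (15.6%) were called higher, against 11.4% of all gene and class pairs, and 420 (10.3%) were called lower, against 3.06%. Of the 636, limma-voom also called 507 (79.7%). For 65 of them the gene had no count in at least 1 other class, where the mean on the log scale depends on the prior count. With limma-voom 8.35% of all pairs were called higher and 5.39% lower. With all other libraries as 1 group in place of the mean of 52 classes, edgeR called 2.96% of the member and class pairs higher and 1.69% lower, against 2.07% and 0.637% of all gene and class pairs. A member was called higher in a median of 8 classes, a flp gene in 9 and any gene in 6.

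Related classes were compared directly in 5 pairs, each fitted with its own libraries. ASEL and ASER are the left and right members of the main salt-sensing pair and are known to express different receptor guanylyl cyclases. Of 67 members tested, 17 were higher in ASER and 1 in ASEL, against 6.08% and 5.27% of all genes (edgeR, adjusted p under 0.05). The gene nlp-5 was at 850, 498, 944 and 334 CPM in ASER and at 1.15, 11.6 and 7.95 CPM in ASEL. The gene nlp-57 was at 1226, 1138, 1668 and 858 CPM in ASER and at 15.01, 19.8 and 18.8 CPM in ASEL. For both, the 2 classes lay far apart, with log2 fold changes (ASEL over ASER) of -6.25 ± 0.54 (edgeR adjusted p = 8.12e-06) and -5.88 ± 0.35 (9.48e-07). The 1 gene higher in ASEL was nlp-1, at 318, 346 and 258 CPM against 117, 119.9, 147.02 and 83.2 CPM, a log2 fold change of 1.61 ± 0.26 (edgeR adjusted p = 0.00111). For nlp-3, the strongest member in both, the log2 fold change was -0.10 ± 0.27 (edgeR adjusted p = 0.884). When the pair was read from the fit of all classes, 9 of 77 members were called, all higher in ASER, where 0.911% of all genes were, and nlp-1 was not among them (edgeR adjusted p = 0.37).

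AVA and AVE are command interneurons for backward movement. Of 55 members, 10 were higher in AVA and 8 in AVE, against 6.07% and 5.42% of all genes (edgeR, adjusted p under 0.05). The gene nlp-47 was at 484 to 1343 CPM (median 698, n = 6) in AVA and at 14.5, 16.6 and 25.9 CPM in AVE, a log2 fold change of 5.44 ± 0.51 (edgeR adjusted p = 4.5e-05). The gene nlp-57 was higher in AVA by 2.91 ± 0.41 (0.00074). In the other direction nlp-52 was at 1.03 to 6.82 CPM in AVA and at 57.6, 46.7 and 42.2 CPM in AVE, a log2 fold change of -3.48 ± 0.34 (5.27e-05), and that of nlp-48 was -2.82 ± 0.33 (0.000203). The libraries of the 2 classes did not overlap for these 4 genes. In the fit of all classes 2 of 77 members were called higher in AVA and 3 in AVE, against 0.445% and 0.979% of all genes, and the calls of nlp-48 and nlp-57 were lost (edgeR adjusted p = 0.0566 and 0.0964).

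RIC and RIM, neighbouring interneurons, make octopamine and tyramine. Of 68 members, 12 were higher in RIC and 8 in RIM, against 7.55% and 7.08% of all genes (edgeR, adjusted p under 0.05). The gene nlp-7 was at 1295, 503, 1177 and 1128 CPM in RIC and at 3.54, 5.28, 19.98 and 3.90 CPM in RIM, a log2 fold change of 6.89 ± 0.72 (edgeR adjusted p = 0.000559). That of nlp-46 was 6.63 ± 0.76 (0.000839). In RIM nlp-52 was at 241, 230.6, 59.6 and 351 CPM, and in RIC at 12.4, 2.37, 10.8 and 14.03 CPM, a log2 fold change of -4.47 ± 0.64 (0.00201), and that of nlp-59 was -4.26 ± 0.63 (0.00241). No library of 1 class reached the other for these 4 genes. RICr135 and RIMr224 were the lowest of their classes for the genes high there.

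AWB and AWC are olfactory neurons, for repellents and attractants in turn. Of 58 members, 4 were higher in AWB and 11 in AWC, against 7.49% and 10.5% of all genes (edgeR, adjusted p under 0.05). The gene nlp-63 was at 57.6, 69.9, 10.5 and 149.2 CPM in AWC and at 0 to 2.91 CPM in AWB, a log2 fold change (AWB over AWC) of -6.01 ± 0.83 (edgeR adjusted p = 0.000782). That of nlp-91 was -4.09 ± 0.73 (0.00264). The gene nlp-48 was at 140.8, 1.74, 35.9, 153.5 and 95.1 CPM in AWBr50 to AWBr54 and at 1.202 to 5.79 CPM in AWC, a log2 fold change of 4.56 ± 0.92 (0.00544), and that of nlp-50 was 2.91 ± 0.77 (0.0218). For nlp-48 and nlp-50 the classes overlapped through AWBr51, which is low in the AWB gene str-1, and the call of nlp-50 was lost without AWCr156 or AWCr157.

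SMB and SMD are head motor neurons that steer and bend the head. Of 63 members, 6 were higher in SMB and 8 in SMD, against 6.94% and 4.86% of all genes (edgeR, adjusted p under 0.05). The log2 fold change of nlp-20 was 6.79 ± 0.50 (edgeR adjusted p = 1.92e-05), with 6.69 to 17.5 CPM in SMD. That of nlp-35 was 6.49 ± 0.75 (0.000136). In the other direction nlp-41 was at 695, 1013, 253 and 194.6 CPM in SMD and at 5.17 to 15.6 CPM in SMB, a log2 fold change of -5.61 ± 0.56 (5.31e-05), and that of nlp-64 was -5.51 ± 0.55 (5.35e-05). The 2 classes did not overlap for these 4 genes.

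**Figure D5:**
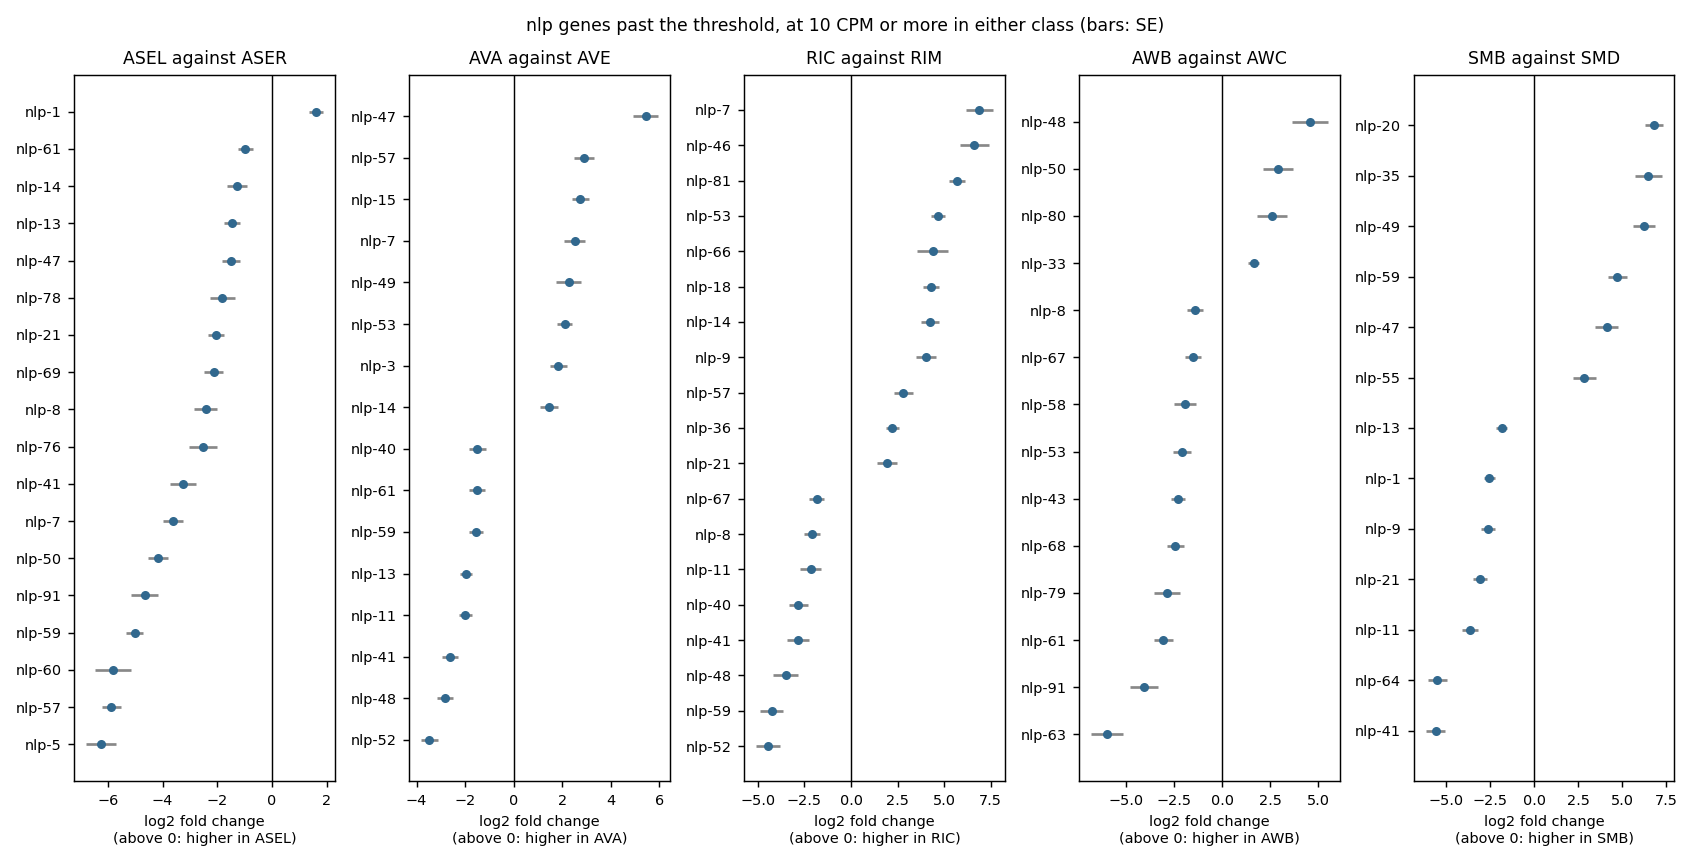
Log2 fold change of each nlp gene past the threshold in 5 pairs of related classes, among genes at 10 CPM or more in either class, with bars for the SE. In ASEL against ASER all points but nlp-1 lie below 0, on the ASER side, and in the other 4 pairs points lie on both sides.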

How the data were processed

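The values are whole-number read counts per gene, deposited by the authors as 1 table of 46927 genes whose name gives WormBase release 289 (WS289). STAR 2.7.7a, UMI-tools 1.1.4, Subread 2.0.3 and featureCounts are named in the submitters' processing notes, without their settings, so whether counts are of molecules or reads, and whether strand was used, is not given in the sources used here. The table has 14 columns whose names match no library of the labels, and these were left out.

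Symbols and positions were taken from Ensembl release 115 and RefSeq for WBcel235. Counts were scaled by trimmed mean of M values (TMM, factors from 0.255 to 2.03) to CPM. Class differences were tested with edgeR 4.0.16 (quasi-likelihood, filterByExpr by class, 20427 genes kept), with p-values adjusted over all genes tested by the Benjamini-Hochberg method within each comparison, at a threshold of 0.05. Class comparisons used 1 fit of all libraries, with the spread pooled over the classes, and each of the 5 pairs its own libraries. The SE of an edgeR log2 fold change was taken as its absolute value divided by the square root of the F statistic. It is therefore only approximate, above all at large fold changes. Alternatives used limma 3.58.1, DESeq2 1.42.0 (pairs), relative log expression scaling, no filter, no ribosomal RNA genes, all other libraries as 1 group, left-out libraries, and, chosen after seeing the data, omission of the 13 libraries set apart by class markers. The fits were also run on simulated data with known changes, with the same spread for every gene and no difference among the other classes. In the real data 95.4% of tested genes differed among classes, so the simulation cannot show how the tests perform here. Its rates are not given. R 4.3.3 and Python 3.11.15 were used.

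The members, lists and tests were chosen with earlier results of these data known. Members described in full were the 20 with the highest class mean, the 10 with the largest ratio of the highest to the next class at 100 CPM or more, the 5 broadest, the listed groups, in each pair of classes the 2 most changed called members per direction, and the 5 most similar pairs. Others are named for completeness, chosen after their values were seen.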

Additional observations from a re-analysis of the deposited data

Results flagged for a closer look

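In 37 groups of 4 to 10 libraries (the highest class of each member described in full), 8 had 1 library separated from the rest by a gap wider than the 95% critical value of Dixon's test. The nominal rate of about 1 in 20 does not hold here, because each class was picked for its high mean. Groups also share libraries, and the gaps were taken on CPM without a log. Of the 8, 4 were AIMr192, which also held the AIY gene ttx-3 and a higher sum of egl-3 and sbt-1 than the other AIM libraries. It was at 90789 CPM for nlp-80 (8464 to 13220 in the other AIM libraries), at 16211 for nlp-70 (1651 to 2077), at 13918 for nlp-11 (1663 to 2180) and at 7705 for nlp-50 (772 to 1627). PVQr236 was at 515 CPM for the skin defence gene nlp-24, against 1.12 to 30.6 CPM in the other PVQ libraries. CEPr281 was at 5244 CPM for nlp-71, against 1376 to 2010 CPM. AFDr37 was at 9.15 CPM for nlp-32, against 0.528 to 2.52 CPM in the other 4. RICr135 was low, at 250.3 CPM for nlp-9 against 1058 to 1169 CPM. The causes were not tested.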

How the results depend on the processing

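No paired analysis was possible because library numbers are unique and no class shares one with another. All 77 members were called among the classes in edgeR, and 75 to 78 under the alternatives. Of member and class pairs, 15.6% were called higher and 10.3% lower by edgeR, and 2.96% and 1.69% with all other libraries as 1 group (2.07% and 0.637% of all genes). Leaving out 1 library of every class was not run with edgeR for these pairs. With limma-voom (12.9% and 7.3% with all libraries) it gave 10.5% to 12.8% higher and 4.14% to 7.08% lower. Of 46 members described in full, all 46 were called higher in their highest class by edgeR, 41 against all other libraries as 1 group, and 42 to 45 in the left-out rounds. Each class was picked as the highest from the same counts, so such calls are close to fixed in advance. The share of all genes called in their own highest class is not given here.

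With every library in the fit, members called fell from 18 to 9 for ASEL against ASER and from 18 to 5 for AVA against AVE, while RIC against RIM had 19, AWB against AWC 11 and SMB against SMD 13. Of all genes, 0.539% were called higher in ASEL and 0.911% in ASER, 0.445% in AVA and 0.979% in AVE. The shares were 3.34% and 4.68% for RIC and RIM, and 3.45% and 2.23% for SMB and SMD. For AWB and AWC, 3.9% and 10.4% of members were called, near the 5.54% and 8.05% of all genes. With 1 library of a pair left out, calls ran from 14 to 21 for ASEL and ASER, 13 to 20 for AVA and AVE, 16 to 29 for RIC and RIM, 10 to 20 for AWB and AWC and 12 to 15 for SMB and SMD. Shares of all genes are not given for these rounds, so their counts cannot be set against a background. The calls of nlp-1 (ASEL over ASER), nlp-48 and nlp-57 (AVA and AVE) were lost with every library in the fit. The log2 fold change of nlp-24 in PVQ was -2.49 without the 13 libraries and -0.78 to 1.75 in the left-out rounds, and that of nlp-34 in CAN was -0.17 to 1.92, all with limma-voom. The causes were not tested. At thresholds of 5 and 50 CPM, 74 and 63 members were detected. On plain library totals 7 of 46 class means moved by more than 1 SD. Depth limits values under about 3 counts, a median of 0.643 CPM, and classes of 2 libraries give a poor estimate of the spread.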
